A study of Homo sapiens with 19 samples.

Results

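SKBR3 cells that had been exposed to epirubicin and then sorted for low or absent surface CD44 were compared with untreated SKBR3 cells. SKBR3 is a human breast cancer cell line with an amplified ERBB2 gene and a luminal phenotype, and epirubicin is an anthracycline that enters DNA and traps topoisomerase II on it. The samples were chosen by their titles alone. They were 4 CD44lo samples taken after 60 nM epirubicin over 3 days and 3 untreated samples, 7 of the 19 samples of the series. The remaining samples were 4 CD44hi samples from the epirubicin treatment and 4 CD44lo and 4 CD44hi samples from cells kept in 1% oxygen over 7 days. No genotype other than that of the line is given, and no sort is named for the untreated cells, so the drug, the sort and its handling cannot be told apart in the comparison with them. The samples are described as biological replicates, without a statement that they came from separate cultures, so a p-value here weighs only the scatter among samples, which could be technical. Gene expression was measured on Affymetrix arrays with 54675 probe sets, from 200 ng of RNA per sample. The comparison asks which genes differ in the CD44lo cells that remain after the drug, a fraction that was not enriched for the CD44 marker.

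Anthracyclines leave double-strand breaks where topoisomerase II is held on DNA. Cells answer with checkpoint signalling, genes that stop the cycle or start cell death, and, when damaged DNA or RNA reaches the cytosol, with interferon and NF-kB signalling. In mammary epithelium these inflammatory pathways switch on acute phase proteins, complement proteases, guanylate-binding proteins, HLA class I molecules and the immunoproteasome, which trims peptides for them. A further stress route runs through the transcription factor ATF4, which induces amino acid transporters, tRNA synthetases and the factors DDIT3 and ATF3.

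Bright luminal markers were present on all 7 arrays. The summed signal of 19 luminal marker genes was 23879 to 27533 on the untreated arrays and 24617 to 30129 on the CD44lo arrays, where signals are linear intensities on a scale on which the trimmed mean of each array is 100. That sum is mostly keratins and other bright genes, and 4 luminal transcription factors described below were lower on every CD44lo array. In the other direction, 3 of the 19 genes were higher on every CD44lo array, and 1 of these, CDH1, was at 22.2 or less. Summed signals of 13 immune cell markers were 133 to 169 on the untreated arrays and 171 to 327 on the CD44lo arrays, and most of that was CSF1R, with the pan-leukocyte gene PTPRC under 6. Those of 12 stromal and endothelial markers were 89.9 to 114 and 203 to 292, and those of 4 red cell and platelet markers 4.6 to 7.7 and 6.7 to 24.2; no marker was at 0 on all 7 arrays. The part of these other cell types in the results below was not tested. Over the genes tested, the first principal component held 46.8% of the variance. CD44lo array 2 stood nearest to the untreated arrays on it, at 2.0 against 26.5 to 38.6 for the other CD44lo arrays and -40.2 to -21.1 for the untreated arrays. CD44lo array 4 had a 3′ to 5′ signal ratio of the beta-actin control of 1.71, against 1.21 to 1.32 on the other 6 arrays. The mean log2 signal of the spiked-in hybridisation controls was 9.30 to 9.53 on the untreated arrays. On CD44lo arrays 1 to 4 it was 9.95, 9.38, 10.2 and 10.3. All CD44lo arrays but array 2, the one nearest to the untreated arrays on the first component, thus lay above every untreated array.

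Of 12925 genes tested, 365 differed between the CD44lo cells and untreated cells (2.82%), 292 higher (2.26%) and 73 lower (0.565%). The tests were made on log2(signal + 4.2) with limma, and a gene is said to be called, to have risen or to have fallen at an adjusted p under 0.05. Differences are log2 values with their standard errors, and the fold they give understates changes of genes with low signals. Among the called genes, 214 rose and 39 fell by a factor of 2 or more. The median difference over all genes tested was 0.03. Genes whose 4 CD44lo arrays all lay above the 3 untreated arrays made up 13.4% of those tested, and genes with all 4 below made up 10.5%. Of the 365 called genes, 359 had groups that did not overlap, so a lack of overlap adds little to a call. The 15 largest rises, and likewise the largest falls, were taken only from such genes, which fixed this in advance. The number of calls rested on single arrays: leaving out untreated arrays 1, 2 and 3 in turn gave 74, 90 and 258, and leaving out CD44lo arrays 1, 2, 3 and 4 gave 175, 446, 160 and 184. It was 108 with the hybridisation controls as a covariate. Among the 322 genes chosen for naming, 99 were called, 34 of these calls held with any 1 array left out, and none changed direction under any setting tried. The hybridisation controls as a covariate ended 59 of the 99 calls, and the beta-actin ratio as a covariate ended 24. Of the 292 genes that rose, 17 reached the signal needed for testing only through epirubicin arrays, and 15 of these were also called with no such filter.

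**Figure D1:**
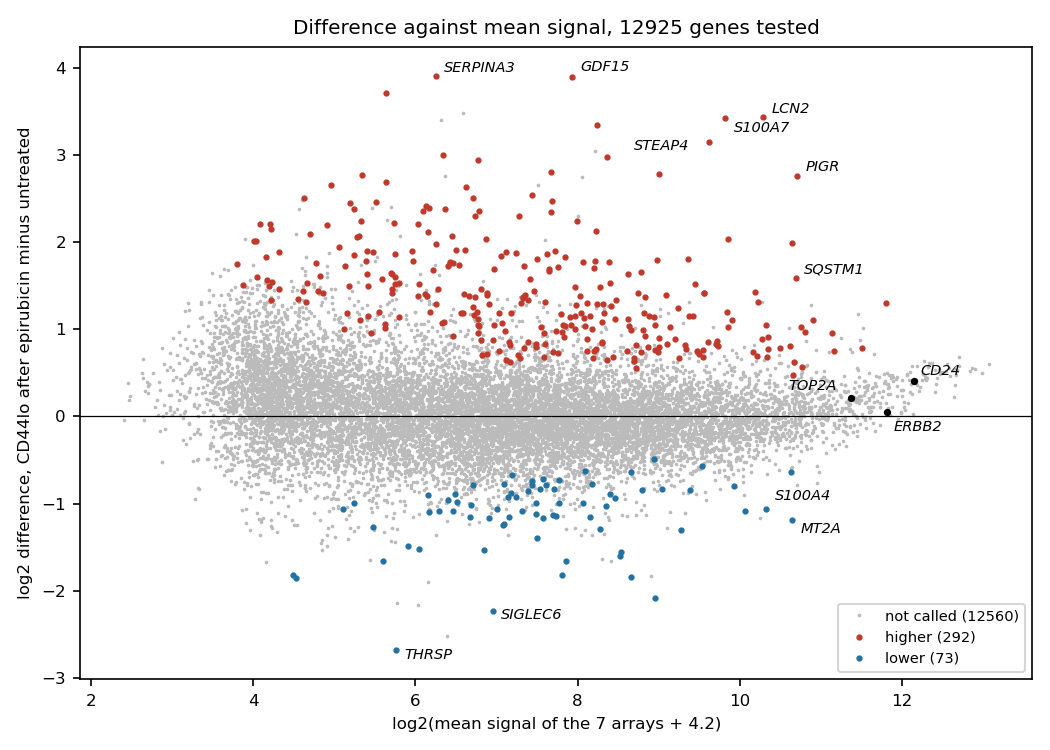
Log2 difference between the CD44lo fraction after epirubicin and untreated cells (vertical axis) against the log2 mean signal of the 7 arrays (horizontal axis), 1 point per gene tested. The 292 genes that rose (red) reach differences near 4, while the 73 that fell (blue) stay above -3; ERBB2, TOP2A and CD24 (black) lie near 0 at high signal.

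Acute phase and complement genes had many members that rose, beside 2.26% of all genes. These lists and those below were chosen with earlier results of these data known. Their counts beside the share of all genes are therefore descriptive and are no test of the lists. Of 14 tested genes of the acute phase list, 7 rose and none fell, with a median difference of 1.10, and 4 of 9 complement genes rose, with a median of 0.81. SERPINA3, the secreted protease inhibitor antichymotrypsin, had signals of 1.4, 3.5 and 9.1 on untreated arrays 1 to 3 and 152, 88.6, 128 and 122 on CD44lo arrays 1 to 4. Every CD44lo array was far above every untreated array, where the gene lay under 16.9, the level that 3 arrays had to reach for a gene to be tested. Its untreated level cannot be told from background, so the size of the difference depends on the offset of 4.2. The difference was 3.91 ± 0.47 (adjusted p = 0.000226), and the adjusted p stayed at or under 0.00422 with any 1 array left out. LCN2, the siderophore-binding protein lipocalin 2, was measured at 146, 139 and 284 in untreated cells and 2065, 1286, 2347 and 2444 in the CD44lo fraction. Its groups lay apart by a wide margin although the lowest CD44lo value, on array 2, was well below the other 3. The difference was 3.43 ± 0.55 (adjusted p = 0.00272, at most 0.0306 with 1 array left out). LBP, the lipopolysaccharide-binding protein of serum, was among the 15 largest rises though not a member of the list, with 3.1, 1.7 and 0.5 in untreated cells and 50.5, 65.9, 59.6 and 137 in the CD44lo fraction. It was at the bottom of the scale on all untreated arrays, with the same limit on its size, and its difference of 3.71 ± 0.57 (adjusted p = 0.00204) held with any 1 array left out. STEAP4, a metal reductase of the membrane, went from 156, 123 and 127 to 883, 1833, 1128 and 1236, without overlap, a difference of 3.15 ± 0.53 (adjusted p = 0.00315).

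**Figure D2:**
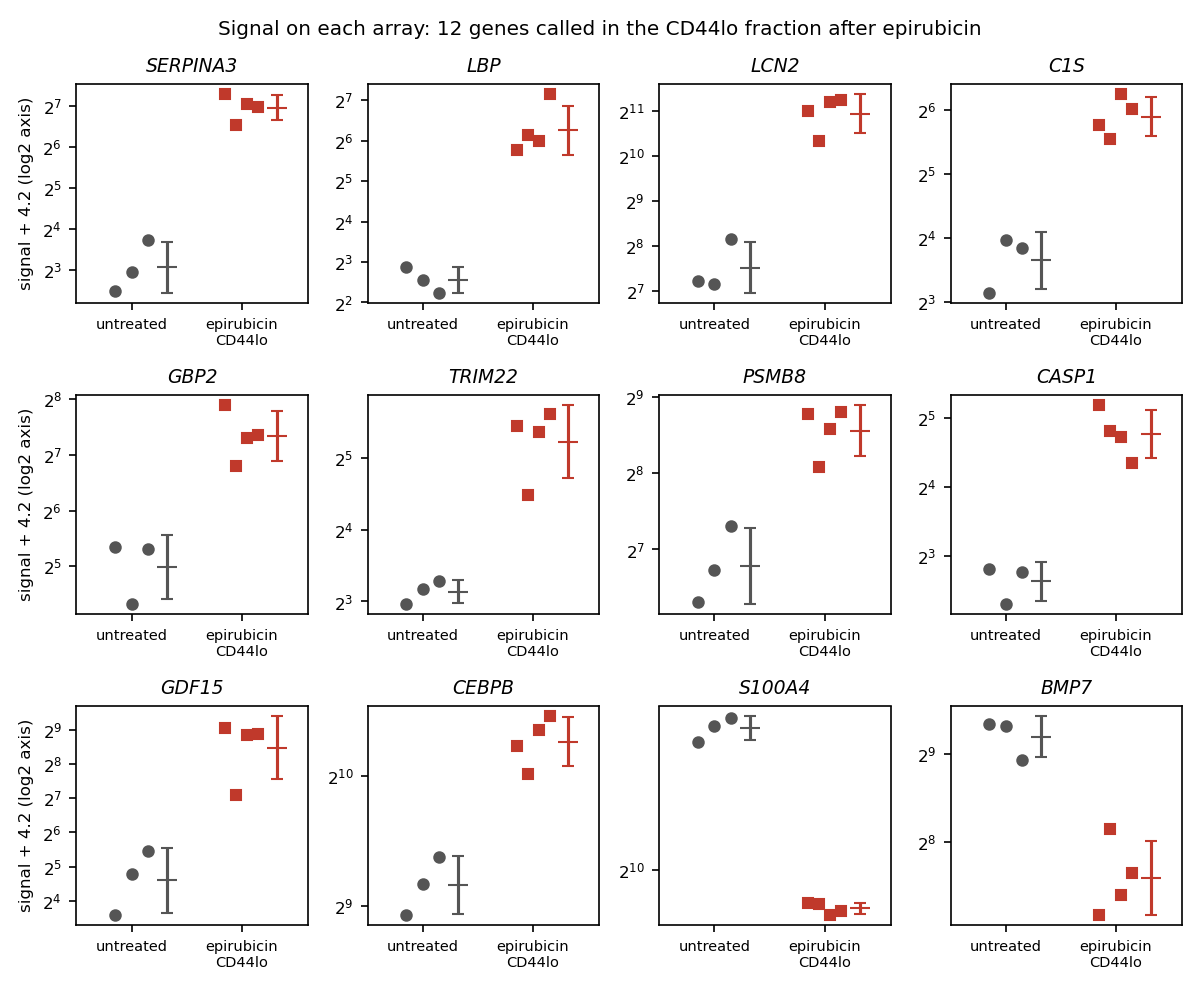
Signal plus 4.2 (log2 axis) on each array for 12 genes called in the CD44lo fraction after epirubicin (red squares, 4 arrays) against untreated cells (grey circles, 3 arrays); the marks beside the points are the mean and SD on the log2 scale. In each panel the groups do not overlap, as in 359 of the 365 called genes. S100A4 and BMP7 are the 2 genes shown that fell.

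In the iron and coagulation part of the list, the copper ferroxidase ceruloplasmin (CP) rose by 2.47 ± 0.51 (adjusted p = 0.0112), the ferritin light chain FTL by 1.11 ± 0.25 (0.020), the fibrinogen chain FGG by 1.55 ± 0.41 (0.0447) and the elastase inhibitor PI3 by 1.87 ± 0.49 (0.0411). The call of CP ended without untreated array 1 or 2, the call of FTL ended without untreated array 1 or 2 or CD44lo array 1, 3 or 4, the call of FGG ended without untreated array 1, 2 or 3 or CD44lo array 1, 3 or 4, and the call of PI3 ended without untreated array 1, 2 or 3 or CD44lo array 1, 2 or 3. The highest adjusted p per gene was then 0.0965 to 0.21. FGG was tested only because the epirubicin arrays reached the filter, and with no filter it was not called (adjusted p = 0.0511). The list kept 3 calls without untreated array 1 and 3 without untreated array 2. Transferrin receptor TFRC, the iron importer, had a difference of -0.10 ± 0.15 and was not called. In the complement list the paired proteases that open the classical pathway both rose. C1S was measured at 4.6, 11.5 and 10.1 in untreated cells and 50.3, 42.7, 71.4 and 60.6 in the CD44lo fraction, and C1R at 19.6, 21.9 and 26.4 untreated against 69.7, 51.8, 69.6 and 78.5 in the CD44lo fraction. Neither gene's groups overlapped, the differences were 2.25 ± 0.38 (adjusted p = 0.00315) and 1.41 ± 0.23 (0.00272), and both calls held with any 1 array left out. Factor B (CFB), of the alternative pathway, rose by 2.53 ± 0.49 (0.00727), and CD55, which protects cells from complement, by 0.81 ± 0.17 (0.00989). The calls of CFB and CD55 ended without untreated array 1 or 2, and the highest adjusted p per gene was then 0.0765 to 0.109. C3, the central component, had signals of 1.1, 17.6 and 9.8 untreated against 37.6, 18.1, 47.1 and 8.8 in the CD44lo fraction, which overlap, and a difference of 1.26 ± 0.56 that did not pass the test (adjusted p = 0.243).

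Interferon-stimulated genes and the HLA class I pathway had many members that rose, beside 2.26% of all genes, and none that fell. In the interferon list 13 of 31 tested genes rose, with a median difference of 1.20, and 7 of 18 genes of the class I presentation list rose, with a median of 0.86. GBP2, a guanylate-binding protein of interferon-treated cells, had signals of 36.4, 15.8 and 35.3 in untreated cells and 233, 107, 154 and 160.2 in the CD44lo fraction. Its relative GBP1 went from 24.3, 21.5 and 41.9 to 121, 175, 188 and 144, with no overlap. The differences were 2.35 ± 0.29 (adjusted p = 0.000226) and 2.30 ± 0.33 (0.000941), and the adjusted p-values with 1 array left out were at most 0.00395 and 0.0152. TRIM22, an antiviral ubiquitin ligase, was near the bottom of the scale in untreated cells at 3.6, 4.8 and 5.5 and reached 39.5, 18.2, 36.8 and 44.6, a difference of 2.09 ± 0.32 (adjusted p = 0.00204). TRIM22 was tested only because the epirubicin arrays reached the filter, and its adjusted p was 0.00264 with no filter. IFIT2, which binds viral RNA, went from 3.8, 2.4 and 3.8 to 53.4, 26.2, 47.5 and 51.4, with CD44lo array 2 below the other 3 and a difference of 2.66 ± 0.50 (0.00598). Both of these calls held.

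Other interferon-stimulated genes were called with all arrays but not with each array left out. PARP14, an ADP-ribosyltransferase, rose by 2.46 ± 0.51 (adjusted p = 0.0115), the antiviral protein IFI44 by 1.83 ± 0.42 (0.0223), SAMD9 by 1.72 ± 0.44 (0.0379) and IRF9, the DNA-binding subunit of the interferon-activated complex, by 1.47 ± 0.28 (0.00631). The calls of PARP14 and IRF9 ended without untreated array 1 or 2, the call of IFI44 ended without untreated array 1, 2 or 3 or CD44lo array 1, 3 or 4, and the call of SAMD9 ended without untreated array 1, 2 or 3 or CD44lo array 1, 2, 3 or 4. Their highest adjusted p-values were then 0.0533 to 0.145. The list kept 4 of its 13 calls without untreated array 1 and 4 without untreated array 2. Of members with high signal, IFITM3 had a difference of 0.48 ± 0.25, LGALS3BP 0.10 ± 0.17 and ISG20 -0.11 ± 0.23, none of them called. Of the 12 tested genes of DNA and RNA sensing, including STING1 (0.45 ± 0.35) and TBK1 (0.02 ± 0.20), none was called.

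In the class I pathway the inducible proteasome subunits led. PSMB9 was measured at 80.8, 72.7 and 192 in untreated cells and 907, 344, 865 and 1110.1 in the CD44lo fraction, and PSMB8 at 75.2, 102 and 155 untreated against 434, 268, 377 and 442 in the CD44lo fraction. In both, untreated array 3 was the highest of its group and CD44lo array 2 the lowest, without overlap. The differences were 2.78 ± 0.48 (adjusted p = 0.00341) and 1.77 ± 0.30 (0.00315). TAP1, 1 chain of the transporter that brings peptides to class I molecules, went from 144, 176 and 240.4 to 512, 397, 399.9 and 479, a difference of 1.26 ± 0.22 (0.00359). HLA-G rose by 1.39 ± 0.23 (0.00272), and the calls of these 4 genes held with any 1 array left out. HLA-B rose by 1.67 ± 0.35 (0.0124), HLA-C by 1.53 ± 0.34 (0.0179) and the loading factor TAPBP by 1.05 ± 0.28 (0.0436). The call of HLA-B ended without untreated array 1 or 2, the call of HLA-C ended without untreated array 1 or 2 or CD44lo array 1 or 4, and the call of TAPBP ended without untreated array 1, 2 or 3 or CD44lo array 1, 3 or 4. At most, the adjusted p per gene was then 0.123 to 0.223. The HLA probe sets are of a type that admits probes shared between related genes, so HLA-B, HLA-C and HLA-G may not be separate measurements. The light chain B2M had 3670.3, 3656 and 4369 untreated against 6068, 4019, 6671 and 7618 in the CD44lo fraction, with an overlap, and a difference of 0.61 ± 0.23 that was not called. Of 7 class II genes none was called, with a median difference of 0.71; the invariant chain CD74 had 3.4, 12.5 and 14 untreated against 49.7, 25.7, 23.6 and 52.5 in the CD44lo fraction, a difference of 1.59 ± 0.44 (adjusted p = 0.0567).

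Since many of these genes rose together, the 250 bases before their start sites in RefSeq (GRCh38.p14) were searched on both strands. The interferon response element core (GAAA, any 2 bases, GAAA) was present in 7 of the 17 called genes of both lists that had a promoter in the table, in 13 of 24 tested members that were not called, and in 3.07% of all 27305 promoters. The sequences of GBP1 and TAP1 are shown because they hold the core and their calls held; that of LCN2 is shown for its match to the NF-kB consensus, found in 4 of 14 called genes of the acute phase, complement and NF-kB lists with a promoter, in 3 of 19 that were not called, and in 5.05% of all promoters. Capitals mark the match, the TAP1 run holds 2 overlapping matches, and each line reads 5′ to 3′ toward the start site on the gene's strand.
GBP1 (chr1:89065209-89065458, minus strand): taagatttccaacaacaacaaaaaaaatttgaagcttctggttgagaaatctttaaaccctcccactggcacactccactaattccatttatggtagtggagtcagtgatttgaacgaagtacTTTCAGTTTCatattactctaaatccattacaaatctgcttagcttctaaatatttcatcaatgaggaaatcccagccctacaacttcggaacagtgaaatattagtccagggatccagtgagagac
TAP1 (chr6:32853705-32853954, minus strand): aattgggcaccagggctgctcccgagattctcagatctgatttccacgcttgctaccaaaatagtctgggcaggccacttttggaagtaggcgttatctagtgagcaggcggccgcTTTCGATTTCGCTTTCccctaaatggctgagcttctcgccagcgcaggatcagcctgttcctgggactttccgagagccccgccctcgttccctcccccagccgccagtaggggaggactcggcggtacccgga
LCN2 (chr9:128149203-128149452, plus strand): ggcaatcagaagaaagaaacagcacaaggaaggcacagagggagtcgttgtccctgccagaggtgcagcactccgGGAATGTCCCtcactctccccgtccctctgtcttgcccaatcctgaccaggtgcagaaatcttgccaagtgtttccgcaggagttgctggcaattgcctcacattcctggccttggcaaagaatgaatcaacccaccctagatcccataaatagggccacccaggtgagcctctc
A match describes the letters only, and for the interferon core the share was no lower among list members that were not called.

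NF-kB targets, cytokines and the STAT3 axis also had members that rose, beside 2.26% of all genes, and none that fell. In the NF-kB list 7 of 20 tested genes rose (median difference 0.71), in the cytokine list 5 of 21 (median 1.36) and in the STAT3 and IL6 list 3 of 13 (median 0.72). CEBPB, a transcription factor of the acute phase response, had signals of 483, 573 and 661 in untreated cells and 1200.1, 1032, 1307 and 1405 in the CD44lo fraction. The lowest CD44lo array exceeded the highest untreated array, and the difference of 1.11 ± 0.17 (adjusted p = 0.00256) held with any 1 array left out. NFKBIZ, an inducible nuclear cofactor of NF-kB, went from 24.1, 46.8 and 29.8 to 112, 139.5, 146 and 88.6, a difference of 1.75 ± 0.31 (0.00391) that held as well. The related CEBPD rose by 1.48 ± 0.27 (0.00474) and the adhesion molecule ICAM1 by 2.25 ± 0.44 (0.00715). The calls of CEBPD and ICAM1 ended without untreated array 1, and the highest adjusted p per gene was then 0.0518 to 0.0765. STAT3 itself had 1518, 1600.1 and 1796 untreated against 2925, 2233, 3125 and 2839 in the CD44lo fraction, a rise of 0.75 ± 0.18 (0.0271), and IL6ST, a receptor subunit upstream of it, had a difference of 0.72 ± 0.20 that was not called (0.0617). The call of STAT3 ended without untreated array 1 or 2 or CD44lo array 1, 3 or 4, and the adjusted p then reached 0.164.

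The inhibitor NFKBIA rose by 0.83 ± 0.19 (adjusted p = 0.0191), its partner in feedback TNIP1 by 0.77 ± 0.19 (0.0286) and the subunit RELB by 0.96 ± 0.21 (0.0166), while RELA, at 0.23 ± 0.19, was not called. Among secreted factors, the chemokines CCL20 and CX3CL1 rose by 1.94 ± 0.45 (0.0238) and 1.38 ± 0.33 (0.026), IL32 by 2.06 ± 0.44 (0.0148) and TNFSF15 by 2.21 ± 0.53 (0.0272). The calls of NFKBIA and CCL20 ended without untreated array 1 or 2 or CD44lo array 1 or 3, the calls of TNIP1 and CX3CL1 ended without untreated array 1 or 2 or CD44lo array 1, 3 or 4, the call of RELB ended without untreated array 1 or 2 or CD44lo array 1, the call of IL32 ended without untreated array 2 or 3 or CD44lo array 3 or 4, and the call of TNFSF15 ended without untreated array 1, 2 or 3 or CD44lo array 1 or 3. The highest adjusted p per gene was then 0.106 to 0.205. CCL20 was tested only because the epirubicin arrays reached the filter, and its adjusted p was 0.0315 with no filter. Without untreated array 1 the NF-kB list kept 1 of its 7 calls. The monocyte chemokine CCL2 had signals of 54.3, 50.5 and 57.3 in untreated cells and 199, 525, 360.3 and 76.7 in the CD44lo fraction. Its CD44lo arrays were all higher but lay far apart from each other, and the difference of 2.03 ± 0.55 did not pass the test (adjusted p = 0.0515). SOD2, the mitochondrial superoxide dismutase induced by NF-kB, had 1623, 1510.3 and 1587 untreated against 2919, 2402, 2991 and 2300.3 in the CD44lo fraction, again apart, with a difference of 0.74 ± 0.20 (0.0537).

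Of 29 tested genes of the list of genes induced by DNA damage, 4 rose, beside 2.26% of all genes, and none fell, with a median of 0.05, beside 0.03 over all genes. GDF15, a stress cytokine, was among the 15 largest rises, from 7.7, 23 and 39.3 to 534, 134, 460.0 and 476. CD44lo array 2 was far below the other 3 yet above every untreated array, and the difference was 3.89 ± 0.63 (adjusted p = 0.00272, at most 0.0356 with 1 array left out). PMAIP1, the BH3-only protein NOXA, went from 68.6, 78 and 106 to 328, 217, 281 and 294, a difference of 1.69 ± 0.27 (0.00263) that held. TRIM22, described above, was among the 4. The cell cycle inhibitor CDKN1A had 56, 56.9 and 49.8 untreated against 76.5, 113, 104 and 168 in the CD44lo fraction, which do not overlap, and a difference of 0.98 ± 0.43 that was not called (0.231). MDM2, a ubiquitin ligase, had 753, 794 and 653 untreated against 583, 651, 584 and 402 in the CD44lo fraction, a difference of -0.42 ± 0.25 in the other direction, also not called (0.386).

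Cell death genes showed rises among inflammatory caspases, and the list counts here stand beside the 2.26% of all genes that rose. CASP1, which cleaves interleukin precursors, was at the bottom of the scale in untreated cells, at 2.8, 0.7 and 2.6, and at 32.2, 24, 22.2 and 16.2 in the CD44lo fraction. CASP4, the caspase that senses lipopolysaccharide, went from 76.9, 58.9 and 92.6 to 196, 242, 227 and 268. Both genes were higher on every CD44lo array, by 2.15 ± 0.37 (adjusted p = 0.00315) and 1.58 ± 0.28 (0.00405), both calls held, and they were the 2 of 22 tested death receptor and caspase genes that were called. In the BCL2 family 2 of 17 rose: PMAIP1, and BMF, a BH3-only protein, by 1.48 ± 0.38 (0.0392). CASP1 was tested only because the epirubicin arrays reached the filter, and its adjusted p was 0.00265 with no filter. The call of BMF ended without untreated array 1 or 2 or CD44lo array 1, 3 or 4, and the adjusted p then reached 0.231. The survival genes MCL1 (0.51 ± 0.24) and BCL2L1 (-0.01 ± 0.17) were not called.

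None of 37 mitosis genes, 36 DNA replication genes or 34 DNA damage and repair genes was called, with medians of -0.12, -0.37 and -0.25. With 2.82% of all genes called, a count of 0 in lists of this size is near the overall share. The hybridisation controls as a covariate moved these medians to 0.24, 0.04 and -0.02, so their direction is not settled. The proliferation marker MKI67 had 653, 540.5 and 588 in untreated cells and 375, 508, 462 and 447 in the CD44lo fraction. All 4 CD44lo arrays were lower, and the difference was -0.41 ± 0.44 (adjusted p = 0.661). The hypoxia arrays, which enter this standard error, ranged from 38.5 to 152 for CD44lo and from 31.7 to 145 for CD44hi. Among the brightest members, the mitotic kinase AURKA had a difference of 0.33 ± 0.28, the nucleotide-making RRM2 -0.57 ± 0.45, the break sensor NBN -0.04 ± 0.15 and the repair kinase PRKDC -0.56 ± 0.22. Of 24 G1 regulators 1 was called, the transcription factor MYB, which went from 175, 217 and 138 to 64.6, 98.4, 46.2 and 36.2, a difference of -1.53 ± 0.34 (0.0169). The call of MYB ended without untreated array 1 or 2 or CD44lo array 3 or 4, and the adjusted p then reached 0.113. The 15 histone genes tested had no call.

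The targets and handling genes of the drug had 1 call, which at this list size is near the share of 2.82% over all genes. TOP2A, the topoisomerase that anthracyclines trap, was measured at 2352, 2267 and 2588 in untreated cells and 3208, 2504, 3207 and 2308 in the CD44lo fraction. The ranges overlapped, and the difference was 0.21 (exact permutation test, two-sided p = 0.314, 0.533 after adjustment over 4 such tests, with 0.0286 the smallest p that 35 arrangements allow). After quantile normalization it was 0.04. TOP2B had 686, 684 and 692 untreated against 602, 569, 637 and 474 in the CD44lo fraction, a difference of -0.28 ± 0.16 that was not called. Of 22 tested genes that bind, export or reduce anthracyclines, the vault protein MVP was the single call, with a rise of 0.96 ± 0.22 (adjusted p = 0.0183); the exporter ABCC1 had a difference of 0.15 ± 0.16 and the quinone reductase NQO1 0.87 ± 0.43. The call of MVP ended without untreated array 1 or 2 or CD44lo array 3 or 4, and the adjusted p then reached 0.126.

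The ATF4 amino acid response had the most calls after the interferon list, 11 of 31 tested, beside 2.82% of all genes. All 11 were higher, and the list's median difference was 0.72. CEBPB was 1 of them and the sole call that remained without untreated array 1; 4 remained without untreated array 2. DDIT3, a transcription factor of prolonged stress, had 37.9, 36.9 and 72 in untreated cells and 209, 106, 168 and 308 in the CD44lo fraction. CHAC1, an enzyme that degrades glutathione, had 20.6, 21.1 and 21.4 untreated against 58.8, 74.8, 81.3 and 130.5 in the CD44lo fraction. Neither gene's groups overlapped, CD44lo array 4 was the highest in both, and the differences were 1.89 ± 0.45 (adjusted p = 0.026) and 1.79 ± 0.39 (0.0166). ATF3 rose by 1.77 ± 0.37 (0.0112), PPP1R15A, which restores translation, by 1.69 ± 0.33 (0.00744), the transporter subunit SLC3A2 by 1.19 ± 0.24 (0.00927), the serine synthesis enzyme PHGDH by 1.14 ± 0.30 (0.0445) and the tRNA synthetase AARS1 by 1.03 ± 0.24 (0.0241). The call of DDIT3 ended without untreated array 1 or 2 or CD44lo array 1, 3 or 4, the call of CHAC1 ended without untreated array 1 or 2 or CD44lo array 4, the calls of ATF3, PPP1R15A and SLC3A2 ended without untreated array 1, and the calls of PHGDH and AARS1 ended without untreated array 1, 2 or 3 or CD44lo array 1, 3 or 4. Their highest adjusted p-values were then 0.051 to 0.27. ATF4 itself, with 1376, 1373 and 1402 untreated against 1934, 1728, 1963 and 2765 in the CD44lo fraction, was higher on every CD44lo array with a difference of 0.58 ± 0.20 that was not called (0.131). The element read by ATF4 with CEBP factors, TGATGNAA, was found in the promoters of 3 of 10 called genes of this list with a promoter in the table, in 1 of 16 that were not called and in 3.19% of all promoters. CHAC1 is printed as an example that holds it, in capitals on the minus strand of the run, to show where the letters lie.
CHAC1 (chr15:40953221-40953470, plus strand, GRCh38.p14): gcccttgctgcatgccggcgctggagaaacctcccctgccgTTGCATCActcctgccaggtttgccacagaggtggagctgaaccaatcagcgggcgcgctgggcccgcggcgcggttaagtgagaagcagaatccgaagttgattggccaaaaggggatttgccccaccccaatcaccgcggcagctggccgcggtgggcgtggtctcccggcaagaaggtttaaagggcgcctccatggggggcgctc

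Of 23 tested chaperones and stress sensors of the endoplasmic reticulum 1 rose, beside 2.26% of all genes. It was the sensor ERN1, with a difference of 0.95 ± 0.24 (adjusted p = 0.0369), and the list's median was 0.03. The call of ERN1 ended without untreated array 1, 2 or 3 or CD44lo array 1, 3 or 4, and the adjusted p then reached 0.187. HSPA5, the main chaperone, had a difference of 0.13 ± 0.16 and HSP90B1 0.30 ± 0.21. In the lysosome and autophagy list 5 of 28 rose. SQSTM1, the autophagy receptor p62, had 685, 728 and 837 in untreated cells and 2453, 1542, 2223 and 3067 in the CD44lo fraction, a difference of 1.59 ± 0.28 (0.00413). MAP1LC3B, of the autophagosome membrane, went from 244, 273 and 329 to 585, 502, 643 and 532, a difference of 1.00 ± 0.18 (0.00405). Both genes were apart on all arrays and both calls held. OPTN, a further receptor, rose by 1.78 ± 0.34 (0.00669), GABARAPL1 by 1.39 ± 0.34 (0.0269) and the protease cathepsin S (CTSS) by 2.37 ± 0.48 (0.00964). The call of OPTN ended without untreated array 2, the call of GABARAPL1 ended without untreated array 1 or 2 or CD44lo array 1, 3 or 4, and the call of CTSS ended without untreated array 1 or 2. At most, the adjusted p per gene was then 0.0702 to 0.239. Of 25 antioxidant genes, SQSTM1 and the reductase AKR1B10 were called, the latter at 44.5, 26.3 and 44.6 untreated against 139.7, 174, 148 and 214 in the CD44lo fraction, a rise of 2.03 ± 0.37 (0.00413) that held. TXNRD1, thioredoxin reductase, had a difference of 0.74 ± 0.26 and was not called.

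Of 19 genes of luminal identity 1 was called, beside 2.82% of all genes. It was the epithelial factor ELF3, which rose by 1.02 ± 0.24 (adjusted p = 0.0239), and the list's median was 0.02. The call of ELF3 ended without untreated array 1 or 2 or CD44lo array 1, 3 or 4, and the adjusted p then reached 0.178. With the mean of all its probe sets the ELF3 difference was 0.47 and not called (adjusted p = 0.114), which left the list with no call. In this list 3 of the 19 genes, ELF3, KRT18 and CDH1, lay higher on every CD44lo array than on any untreated array, beside 13.4% of all genes. CDH1 was near the bottom of the scale, at 2.3 to 5.2 on the untreated arrays and 5.6 to 22.2 on the CD44lo arrays. Chosen after their values were seen, 4 of the 19 genes lay lower on every CD44lo array than on any untreated array, beside 10.5% of all genes, and none of these 4 was called. SPDEF, an ETS factor of luminal cells, had 371, 427 and 367 untreated against 192, 233, 140.0 and 77.3 in the CD44lo fraction, a difference of -1.36 ± 0.90 (adjusted p = 0.445). Its hypoxia arrays, which enter this standard error, ranged from 5.9 to 272 for CD44lo and from 3.3 to 197 for CD44hi. TFAP2B, a factor of the AP-2 family, had 139, 87.2 and 106 untreated against 7.5, 79.8, 27.5 and 22.3 in the CD44lo fraction, a difference of -1.90 ± 0.62 (0.111), and its relative TFAP2A had a difference of -0.37 ± 0.17 (0.259). XBP1, a secretory cell factor, had 608, 1084 and 831 untreated against 518, 605, 513 and 236 in the CD44lo fraction, nearly touching, with a difference of -0.88 ± 0.39 (0.232). ERBB2, the amplified receptor, had 3384, 3233 and 4013 in untreated cells and 3800.0, 3073, 3577 and 4194 in the CD44lo fraction. The ranges overlapped, with a difference of 0.04 (exact permutation test, two-sided p = 0.743). Quantile normalization turned it to -0.29 (exact permutation test, p = 0.0286), and the mean of its probe sets to -0.05. The keratins KRT8 and KRT18 and the adhesion molecule EPCAM had differences of -0.02 ± 0.12, 0.34 ± 0.13 and 0.08 ± 0.14, none of them called. CD24, a glycoprotein of luminal cells, had 3397, 3556 and 4425 untreated against 5444, 3692, 5860.5 and 5303 in the CD44lo fraction, with an overlap and a difference of 0.41 (exact permutation test, p = 0.114), or 0.02 after quantile normalization. CD44, the marker of the sort, had 78.8, 52.4 and 67 in untreated cells and 95.2, 132, 59.7 and 65.2 in the CD44lo fraction, again overlapping, a difference of 0.34 (exact permutation test, p = 0.4). After adjustment over these 4 genes the p-values were 0.743 for ERBB2, 0.457 for CD24 and 0.533 for CD44.

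Among stem cell associated genes 3 of 20 rose, beside 2.26% of all genes. The transcription factor SOX4 rose by 0.97 ± 0.22 (adjusted p = 0.0211), the retinaldehyde dehydrogenase ALDH1A3 by 0.68 ± 0.17 (0.033) and ALDH5A1 by 1.01 ± 0.26 (0.0392). The calls of SOX4 and ALDH1A3 ended without untreated array 1 or 2 or CD44lo array 1, 3 or 4, and the call of ALDH5A1 ended without untreated array 1, 2 or 3 or CD44lo array 1, 2, 3 or 4. The highest adjusted p per gene was then 0.15 to 0.221. Of 15 basal and mesenchymal genes the only call was a fall, that of the calcium-binding protein S100A4, from 1724, 1839 and 1899 to 889.6, 885, 847 and 859.7. The 4 CD44lo arrays lay close together and far below the 3 untreated arrays, and the difference of -1.06 ± 0.13 (adjusted p = 0.000226) held with an adjusted p of at most 0.00395 with 1 array left out. In the secretory list 2 of 17 rose. PIGR, which carries antibodies across epithelium, had 192, 258 and 791 untreated against 3526, 968, 2708 and 3196 in the CD44lo fraction. Untreated array 3 was close to CD44lo array 2, the groups did not overlap, and the rise was 2.76 ± 0.57 (0.00997). The mucin MUC20 rose by 2.03 ± 0.50 (0.0285). The call of PIGR ended without untreated array 1 or 2, and the call of MUC20 ended without untreated array 1 or 2 or CD44lo array 1, 3 or 4. Their highest adjusted p-values were then 0.105 to 0.182.

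Several of the 15 largest rises belonged to none of these groups. S100A7, psoriasin, an antimicrobial S100 protein, had 158, 116 and 109 in untreated cells and 805, 2087, 1298 and 1732 in the CD44lo fraction, a rise of 3.42 ± 0.73 (adjusted p = 0.0129). CD44lo array 2 was the highest of its group here, and the choice of the largest rises required groups without overlap. PSG4, a pregnancy-specific glycoprotein, went from 28.6, 34.1 and 60.3 to 425, 196, 497 and 851, a rise of 3.34 ± 0.60 (0.00418). Its probe set admits probes shared within that gene family, so the family member is uncertain. RBP2, a retinol-binding protein, rose by 3.00 ± 0.55 (0.00479), TFPI2, a protease inhibitor, by 2.80 ± 0.48 (0.00326), the ubiquitin ligase TRIM31 by 2.77 ± 0.39 (0.000941) and TCIM, a regulator of Wnt signalling, by 2.68 ± 0.47 (0.00402); these 4 calls and that of PSG4 held with any 1 array left out. PDK4, a kinase that turns off pyruvate dehydrogenase, rose by 2.97 ± 0.60 (0.00927) and the urokinase gene PLAU by 2.95 ± 0.55 (0.00598). TRIM31 was tested only because the epirubicin arrays reached the filter, and its adjusted p was 0.00153 with no filter. The calls of S100A7 and PDK4 ended without untreated array 1 or 2, and the call of PLAU ended without untreated array 1. At most, the adjusted p per gene was then 0.0723 to 0.0879. CDH5, the cadherin of endothelial junctions, had 31.1, 36.2 and 33 untreated against 127, 105, 168 and 154 in the CD44lo fraction. All 4 CD44lo arrays were far above the untreated arrays, a rise of 1.90 ± 0.25 (0.000388, at most 0.00562 with 1 array left out). Other endothelial markers were near the bottom of the scale: KDR was at 1.8 to 12.2 on the CD44lo arrays, VWF at 1.7 to 11.8 and PECAM1 at 12.1 to 18.7.

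Metallothioneins, small proteins that bind zinc and copper, had the most calls of any list among genes that fell. Of 8 tested genes of metal handling 3 fell, with a median of -0.95, against 0.565% of all genes. MT2A had 2394, 2239 and 2319.7 in untreated cells and 1018, 1612, 949.9 and 668 in the CD44lo fraction, MT1X 1001, 985 and 786 untreated against 338, 529, 386 and 270.4 in the CD44lo fraction, and MT1H 657, 799 and 540.2 untreated against 180.5, 354, 169 and 96.6 in the CD44lo fraction. In all 3 the groups did not overlap, CD44lo array 2 was the highest of its group and array 4 the lowest. The differences were -1.19 ± 0.31 (adjusted p = 0.0383), -1.30 ± 0.31 (0.0241) and -1.84 ± 0.45 (0.0282). MT1F, at -1.07 ± 0.34, was not called (0.0966), and the zinc sensor MTF1, which drives these genes, had a difference of 0.26 ± 0.30. The calls of MT2A and MT1H ended without untreated array 1, 2 or 3 or CD44lo array 1, 3 or 4, and the call of MT1X ended without untreated array 1 or 2 or CD44lo array 1, 3 or 4. The highest adjusted p per gene was then 0.139 to 0.173. None of the 3 was called with the hybridisation controls as a covariate or with the beta-actin ratio as a covariate. The probe sets admit probes shared between these near-identical genes. The metal response element cores TGCACNC and TGCGCNC were found in the promoters of all 3 called genes and of 1 of 3 not called, against 24.7% of all promoters. MT2A is shown because it holds 7 matches, in capitals; 0.366% of all promoters hold 4 or more.
MT2A (chr16:56608334-56608583, plus strand, GRCh38.p14): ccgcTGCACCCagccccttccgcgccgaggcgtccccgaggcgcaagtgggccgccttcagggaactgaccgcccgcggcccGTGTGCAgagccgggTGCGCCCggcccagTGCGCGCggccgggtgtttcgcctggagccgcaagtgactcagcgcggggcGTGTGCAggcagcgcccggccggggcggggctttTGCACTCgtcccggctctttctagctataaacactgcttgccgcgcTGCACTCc

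Other falls were in metabolism and growth factors. PDK1, the pyruvate dehydrogenase kinase induced by low oxygen, had 296, 230.3 and 242 in untreated cells and 119, 127, 119.8 and 95.2 in the CD44lo fraction. Its groups were far apart, and the difference of -1.12 ± 0.17 (adjusted p = 0.00155) held with any 1 array left out. Hexokinase HK2 went from 1599, 1526 and 1403 to 651, 986, 766 and 504, a difference of -1.09 ± 0.27 (0.0313). The call of HK2 ended without untreated array 1, 2 or 3 or CD44lo array 1, 3 or 4, and the adjusted p then reached 0.164. They were the 2 of 24 hypoxia target genes that were called, beside 2.82% of all genes. BMP7, a growth factor of the TGF-beta family, went from 644, 636 and 483 to 140.0, 279.6, 165 and 197, a difference of -1.60 ± 0.27 (0.00315), and CPOX, a heme synthesis enzyme, from 112, 84 and 73.9 to 30.6, 41.8, 28.2 and 19.1, a difference of -1.48 ± 0.25 (0.00315). Both held with any 1 array left out, as did THRSP, a regulator of fatty acid synthesis, with 84.3, 129 and 84.2 untreated against 20.2, 17.1, 13 and 2.7 in the CD44lo fraction and a fall of low final signal, -2.68 ± 0.49 (0.00492). TGFB3 had a difference of -1.82 ± 0.43 (0.0258) and the sialic acid receptor SIGLEC6 of -2.23 ± 0.50 (0.0183). The call of TGFB3 ended without untreated array 1 or 2 or CD44lo array 1, 3 or 4, and the call of SIGLEC6 ended without untreated array 1 or 2 or CD44lo array 1 or 3. Their highest adjusted p-values were then 0.138 to 0.156.

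Of 21 sterol and fatty acid genes 2 rose, beside 2.26% of all genes, the cholesterol exporter ABCA1 by 2.36 ± 0.52 (adjusted p = 0.0171) and the sterol desaturase SC5D by 0.70 ± 0.19 (0.0432), while the list's median was -0.30. The call of ABCA1 ended without untreated array 1 or 2 or CD44lo array 1, 3 or 4, and the call of SC5D ended without untreated array 1, 2 or 3 or CD44lo array 1, 2, 3 or 4. At most, the adjusted p per gene was then 0.134 to 0.19. Fatty acid synthase FASN had 1156, 1159 and 756 untreated against 608, 617, 521 and 465 in the CD44lo fraction, all lower after treatment, with a difference of -0.87 ± 0.37 that was not called (0.222). None of 23 respiratory chain genes (median -0.24), 17 ribosome biogenesis genes (median -0.13), 17 genes of the ERBB axis (median 0.32) or 16 immune checkpoint ligands (median 0.77) was called, near the share of 2.82% over all genes at these list sizes. In the senescence list PLAU was the single call of 19, and ATF3 that of 20 immediate early genes. The bulk arrays do not tell a lower share of cells with a transcript from less of it per cell.

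**Figure D3:**
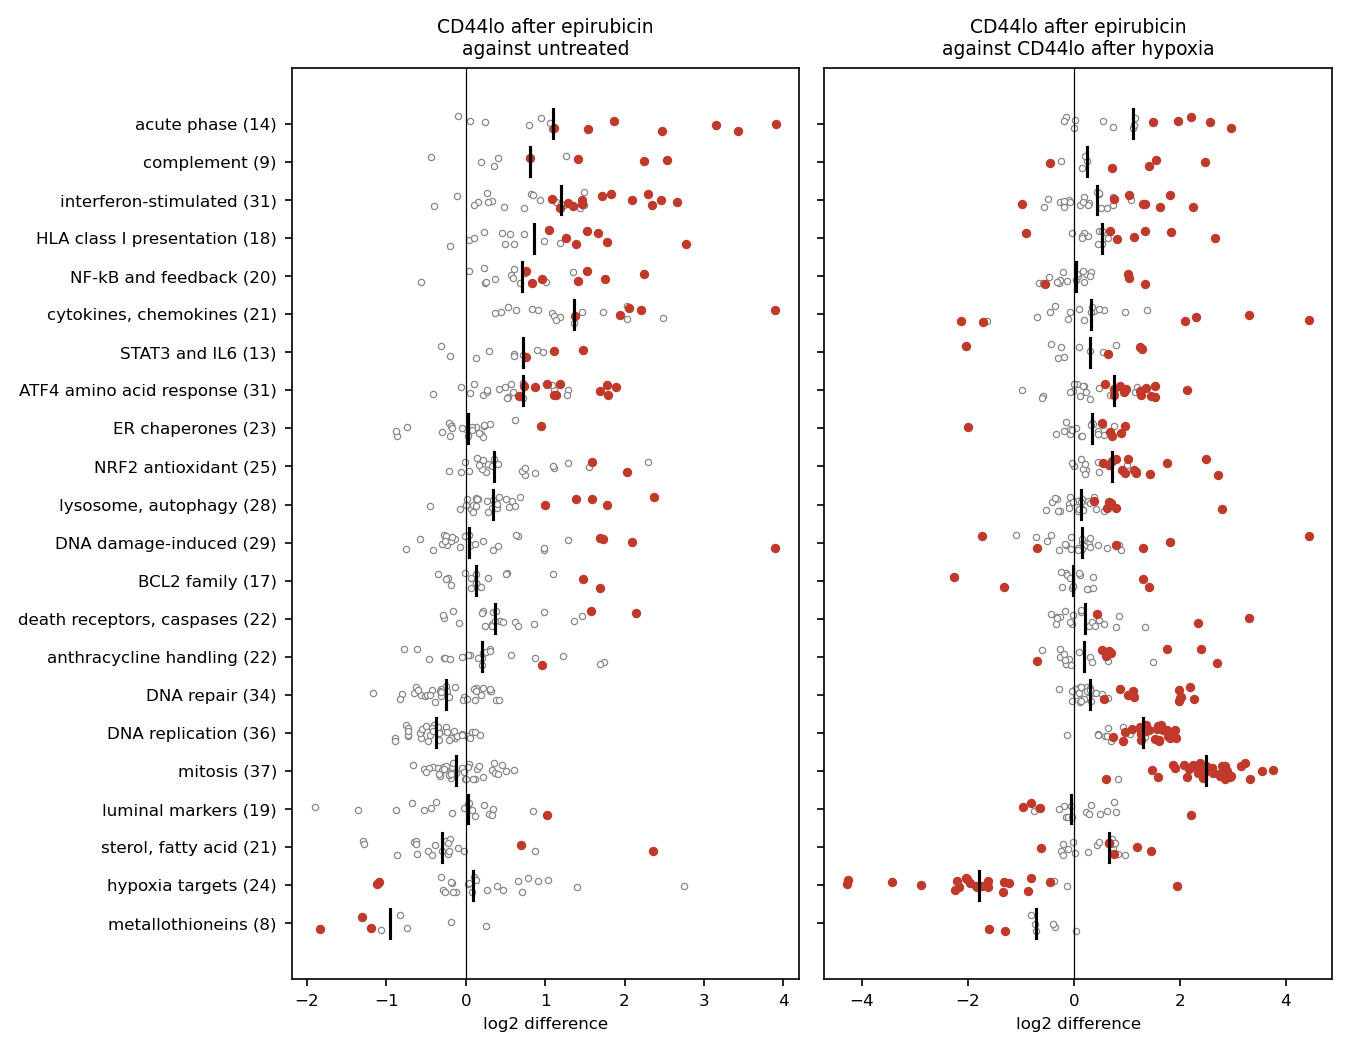
Log2 differences of the tested members of 22 gene lists (number tested in brackets) for the CD44lo fraction after epirubicin against untreated cells (left) and against the CD44lo fraction after hypoxia (right); filled red points passed the test in that comparison, open points did not, and the black bar is the list's median. On the left the inflammatory lists and the ATF4 list lie to the right of 0 and metallothioneins to the left; on the right mitosis and DNA replication genes lie far to the right and hypoxia targets to the left.

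The same fraction was next set against the CD44hi fraction of the same drug treatment, to ask what the sort separated. Only 3 of 12925 genes were called (0.0232%), all lower in the CD44lo cells. In the same limma fit 312 genes had an unadjusted p under 0.05, fewer than the 0.05 of all genes that no difference would give. The 3 called genes were chosen after their values were seen, being the only calls. ACTA2, smooth muscle actin, lay between 20.8 and 33.6 in the CD44lo fraction and between 78.3 and 377.5 in the CD44hi fraction, a difference of -2.73 ± 0.36 (adjusted p = 0.00287). ACTA1, skeletal muscle actin, lay at 6.9 to 18.2 and 49.8 to 232, a difference of -2.65 ± 0.43 (0.0264), and the antisense transcript ACTA2-AS1, which overlaps ACTA2, at 3.5 to 15 and 26 to 56.8, a difference of -1.68 ± 0.29 (0.0498). Fractions with the same sample number deviated together (correlations of 0.37, 0.55, 0.11 and 0.46), but the fit that gave these calls did not pair them. With the number as a block 4 genes were called, these 3 among them. With 1 array left out the count ranged from 1 to 4, with 1 left without CD44lo array 2 or CD44hi array 2 or 4. It was also 1 with an offset of 16, with the hybridisation controls as a covariate or without the epirubicin arrays numbered 4, and 0 in a fit of these 2 groups alone in limma, with 272 genes at an unadjusted p under 0.05 there. CD44 lay at 59.7 to 132 in the CD44lo fraction and at 216 to 1268 in the CD44hi fraction without overlap, a difference of -2.57 ± 0.65 that was not called in the fit (1.00). For the genes above, the CD44lo and CD44hi differences from untreated cells share the untreated arrays and are not independent.

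Against the CD44lo fraction after hypoxia, 2187 genes were called (16.9%), 1272 higher after epirubicin (9.84%) and 915 lower (7.08%), and this count was within 1.5 times under all settings tried. Both comparisons share the 4 CD44lo epirubicin arrays, so the values below are given side by side only. Of the mitosis genes 36 of 37 were higher after epirubicin than after hypoxia, with a median of 2.50, and 25 of 36 DNA replication genes, with a median of 1.31. TOP2A was higher by 2.71 ± 0.53 (adjusted p = 0.00115) and MKI67 by 2.51 ± 0.40 (0.000198), against differences of 0.21 and -0.41 from untreated cells. Hypoxia targets were the reverse, 21 of 24 lower, with PDK1 at -1.97 ± 0.15 (9.14e-08).

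Of the inflammatory genes, some were also higher than after hypoxia and some were not. LCN2 was higher by 2.98 ± 0.51 (adjusted p = 0.000383), GDF15 by 4.44 ± 0.59 (2.87e-05), S100A7 by 4.62 ± 0.67 (6.96e-05), PIGR by 3.44 ± 0.52 (0.000113), PSMB9 by 2.66 ± 0.44 (0.000271), CASP1 by 2.34 ± 0.34 (6.72e-05) and AKR1B10 by 2.49 ± 0.34 (3.5e-05). PSG4 (0.34 ± 0.56), CP (0.56 ± 0.48), PARP14 (1.08 ± 0.48), IRF9 (-0.09 ± 0.26), HLA-B (0.26 ± 0.33), the autophagy receptor OPTN (-0.02 ± 0.32) and FTL (-0.01 ± 0.23) were not called against hypoxia. GBP2 was lower than after hypoxia, with a difference of -0.98 ± 0.27 (0.015), and so was TCIM, -2.35 ± 0.44 (0.000806). CDKN1A was also lower, at -1.73 ± 0.40 (0.00471). By list, 7 of 31 interferon genes were higher and 1 lower, 5 of 14 acute phase genes higher, 14 of 31 ATF4 genes higher and 13 of 25 antioxidant genes higher. Over all genes tested, 9.84% were higher than after hypoxia and 7.08% lower.

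**Figure D4:**
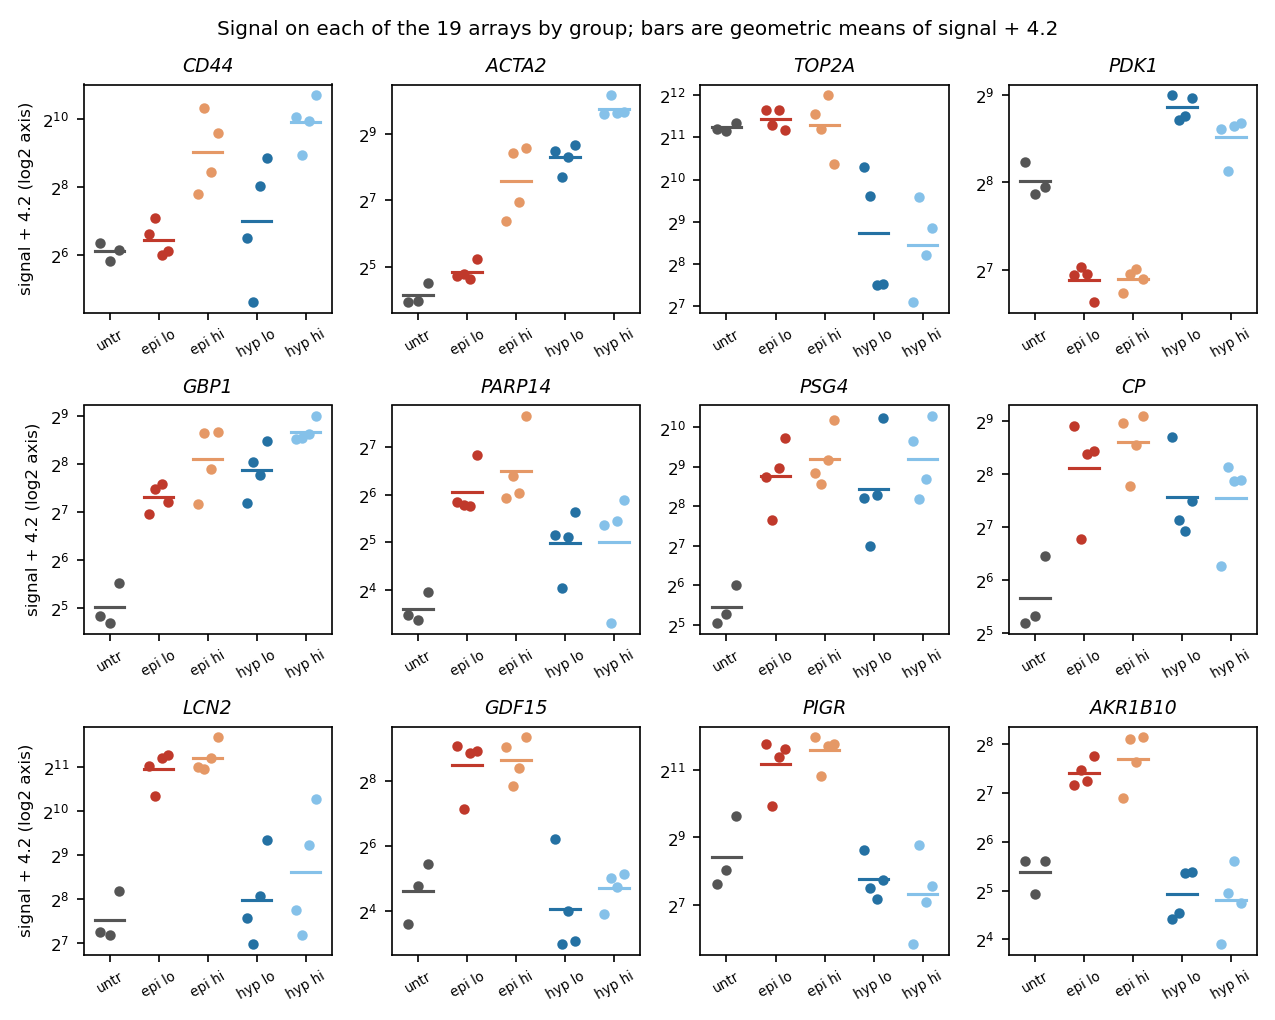
Signal plus 4.2 (log2 axis) on each of the 19 arrays for 12 genes in untreated cells (untr), the CD44lo and CD44hi fractions after epirubicin (epi lo, epi hi) and after hypoxia (hyp lo, hyp hi); bars are means on the log2 scale. ACTA2 and CD44 separate the 2 epirubicin fractions, TOP2A and PDK1 the treatments, and LCN2, GDF15, PIGR and AKR1B10 are high in both epirubicin fractions, while GBP1, PARP14, PSG4 and CP are above the untreated arrays on most treated arrays.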

How the data were processed

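Total RNA of 19 SKBR3 samples was hybridised to Affymetrix arrays. Per the submitters' processing notes the authors used MAS5, and the deposited table holds a linear intensity for every probe set; version, settings and detection calls are not given in the sources used here. All arrays share a 2% trimmed mean of 100, so they were not rescaled, and an array has no read depth: the number of arrays limits the precision.

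Of the 54675 probe sets, 41091 named 1 gene, 1801 several, and 11721 none; 62 were controls. Symbols were updated through gene identifiers in RefSeq (GRCh38.p14). A gene was represented by its probe set with the highest mean, and probe sets that admit shared probes served only genes lacking another (19775 genes in all). A gene was tested when 3 arrays reached 16.9, the median of the table. Log2(signal + 4.2), with 4.2 the 25th percentile, was fitted with 5 group means over all 19 arrays in limma 3.58.1 (R 4.3.3) with a variance trend, two-sided, with Benjamini-Hochberg adjustment over 12925 genes. A check on simulated data used independent noise for each array, without effects of sample number or array quality, so it does not cover those.

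The members and the 39 gene lists (928 entries, 891 genes, 703 of them tested) were chosen with earlier results of these data known. Named genes were CD44, CD24, ERBB2, TOP2A, TOP2B, CDKN1A, MDM2, MKI67 and 1 gene not reported here, the 15 largest rises and 15 largest falls among called genes without overlap, up to 8 called and 6 brightest uncalled members per list, and all members of lists with 12 or fewer tested. Alternatives were the offset, the filter, quantile normalization, the mean of probe sets, the variance trend, the groups fitted, sample number as a block, 2 quality measures as covariates and the arrays left out. Same-numbered CD44lo and CD44hi samples after epirubicin deviated together, while same-numbered CD44lo and untreated samples did not (correlations of -0.28, 0.12 and 0.03). The main fit paired neither, and the sample number entered only as a block among the alternatives. Probe sets naming several genes or none were left out.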

Additional observations from a re-analysis of the deposited data

Results flagged for a closer look

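Of 134 genes named in the report, 11 had 1 CD44lo array apart from the other 3 after epirubicin, with a gap to the nearest array above Dixon's critical share of the group's range on the log2 scale, which chance gives for about 1 group in 20. Array 2 was the lowest for HSPA5 (gap of 0.94 of the range), GABARAPL1 (0.905), GDF15 (0.891), BMF (0.868), HLA-B (0.851) and IFIT2 (0.831). Array 4 was the highest for PARP14 (0.925), IL6ST (0.875) and ISG20 (0.865), and the lowest for TNFSF15 (0.839). Array 1 was the highest for FGG (0.894).

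The 2 epirubicin fractions differed, in the CD44lo minus CD44hi direction, in ACTA2 (log2 difference -2.73), ACTA1 (-2.65) and ACTA2-AS1 (-1.68), each by the test of that difference in limma. The CD44lo fractions after epirubicin and after hypoxia differed in 2187 genes by the same test.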

How the results depend on the processing

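The count of 365 genes called against untreated cells depended on the fit: it was 1180 with only the 7 arrays compared (58.8% of them higher, against 80% with all arrays), 600 with the replicate number as a block, 108 with the hybridisation controls as a covariate and 210 without the epirubicin arrays numbered 4. With 1 array left out it ranged from 74, without untreated array 1, to 446. Over all lists the count of called genes was 86. It was 180 with only the arrays compared, 85 of the 86 among them, 35 with that covariate, 32 of the 86 among them, and 27 to 95 with 1 array left out. Other settings kept both counts within 1.5 times. The 3 calls against the CD44hi fraction were 1 with an offset of 16, 0 in limma with only the groups compared (272 at an unadjusted p under 0.05), 1 with the hybridisation controls and 1 without the arrays numbered 4, and 1 to 4 with 1 array left out. The 2187 calls against hypoxia ranged from 1622 to 2563 with 1 array left out, with 3013 under the block.

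Sample numbers did not pair CD44lo with untreated samples, and the untreated group has no number 4. ERBB2 had a log2 difference of -0.29 after quantile normalization (exact permutation p = 0.0286, the smallest possible) against 0.04 without it, and -0.05 with the mean of its probe sets, and -0.02 to 0.14 with 1 array left out. With 1 array left out CD24 ranged from 0.33 to 0.55, CD44 from 0.13 to 0.50 and TOP2A from 0.14 to 0.30; quantile normalization gave 0.02 for CD24 and 0.04 for TOP2A. Of the 99 called named genes, 34 were called under all 12 other settings and all arrays left out; of 223 not called, 44 were called under some setting. The cause of these changes was not tested. Without detection calls, low signals cannot be told from background.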
